A study of Drosophila melanogaster with 2 samples.

Results

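The nuclear genes for the subunits of oxidative phosphorylation were examined as targets of fu2-GFP, a tagged transcription factor, in embryos of Drosophila melanogaster. The set comprised 88 of the 13986 protein coding genes of the Ensembl BDGP6 annotation, taken by gene names that begin with ND- (complex I), Sdh (complex II), UQCR (complex III), COX (complex IV) or ATPsyn (complex V). The names fell into 63 subunits, 24 duplicate copies whose names end in L or in L and a digit, and 1 assembly factor, Sdhaf3. A gene was scored when the summit of a region, its highest point, lay within 500 bp of any of its annotated transcript starts. Of the 88 genes, 53 had 1 distinct start and 35 had 2 or 3.

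Oxidative phosphorylation couples the transfer of electrons along complexes I to IV of the inner mitochondrial membrane to the pumping of protons, and complex V, the ATP synthase, uses the proton gradient to make ATP. Most subunits are encoded in the nucleus and the remainder in the mitochondrial genome, so the assembled complexes draw on both genomes. In D. melanogaster many nuclear subunit genes also have a duplicated copy, and a good number of these copies are known to be expressed mainly in the testis.

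The data came from chromatin immunoprecipitation with sequencing (ChIP-seq). Whole embryos of mixed sex, aged 0 to 24 h, came from a transgenic line that carries a GFP fused to the carboxyl end of fu2; the chromatin was sheared by sonication to 200 to 800 bp and precipitated with an antibody against GFP. The 2 biological replicates, numbered 2 and 3, form 1 group with the same line, stage and antibody, and no control list was analysed here. The tagged gene, fu2, goes under the symbol prg in the reference gene table, on chromosome arm 2L, and the promoter that drives the transgene is not given in the labels. Whole embryos mix all cell types, so a region cannot be assigned to a tissue.

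The authors deposited a list of 30000 regions for each replicate, a list of 30000 regions for the pooled replicates, and 3033 peaks kept by the irreproducible discovery rate (IDR), a measure of whether regions rank alike in the replicates. The full lists are described as holding background as well as peaks, and each stops at 30000 regions; the sources used here do not say whether that is a cap. A region outside the IDR peaks is therefore a place of local signal and not a called binding site. The IDR list is labelled optimal, and what that choice rests on was not examined. An IDR peak was thus not taken to be strong in each replicate. The 3033 IDR peaks were the 3033 strongest regions of the pooled list, and their lowest signal value was 62.52, against a median of 22.03 over the pooled list. Signal values are the authors' own, and replicates were compared by rank, with rank 1 the strongest. For each gene the strongest region within 500 bp was taken in each list separately, so its ranks may belong to different sites. The lists hold no read counts, so the depth behind each value is unknown and no counting interval is given. With 1 group and no control list there is no condition to test, and the counts below are set beside the same counts over all protein coding genes.

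An IDR peak stood at 18 of the 88 genes (20.5%), beside 17.5% of all protein coding genes, so the share over the whole set was near the background. All 18 were subunits. These were 18 of 63 subunits (28.6%), against 0 of 24 duplicates. A pooled region of any strength stood at 66 of the 88 genes (75%), beside 55.7% of all protein coding genes: 58 of 63 subunits (92.1%), 7 of 24 duplicates (29.2%) and Sdhaf3. Among genes with a pooled region, 27.3% of the set and 31% of the subunits had an IDR peak, beside 31.4% of all protein coding genes. The subunits thus had a region more often than the general gene, but their regions were of ordinary strength: the median pooled signal was 42.4 for subunits and 39.4 over all genes with a region.

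Each replicate was called on its own and gave the same picture. Replicate 2 had a region at 60 of the 88 genes (68.2%), beside 51.9% of all genes, and replicate 3 at 65 (73.9%), beside 55.9%. Among the 3033 strongest regions of each replicate, 17 of the 88 genes (19.3%) were reached in replicate 2, beside 17.3%, and 18 (20.5%) in replicate 3, beside 17.2%. For subunits alone the share with a strongest region was 27.8% ± 1.12 (SD, n = 2), against 17.3% ± 0.0708 (SD, n = 2) for all protein coding genes. Each SD describes the same genes scored in 2 libraries, and not the uncertainty of a share over 63 subunits. Of the 17 and 18 subunits reached, 12 were reached in both replicates. No duplicate was reached by the strongest regions in either replicate.

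**Figure D1:**
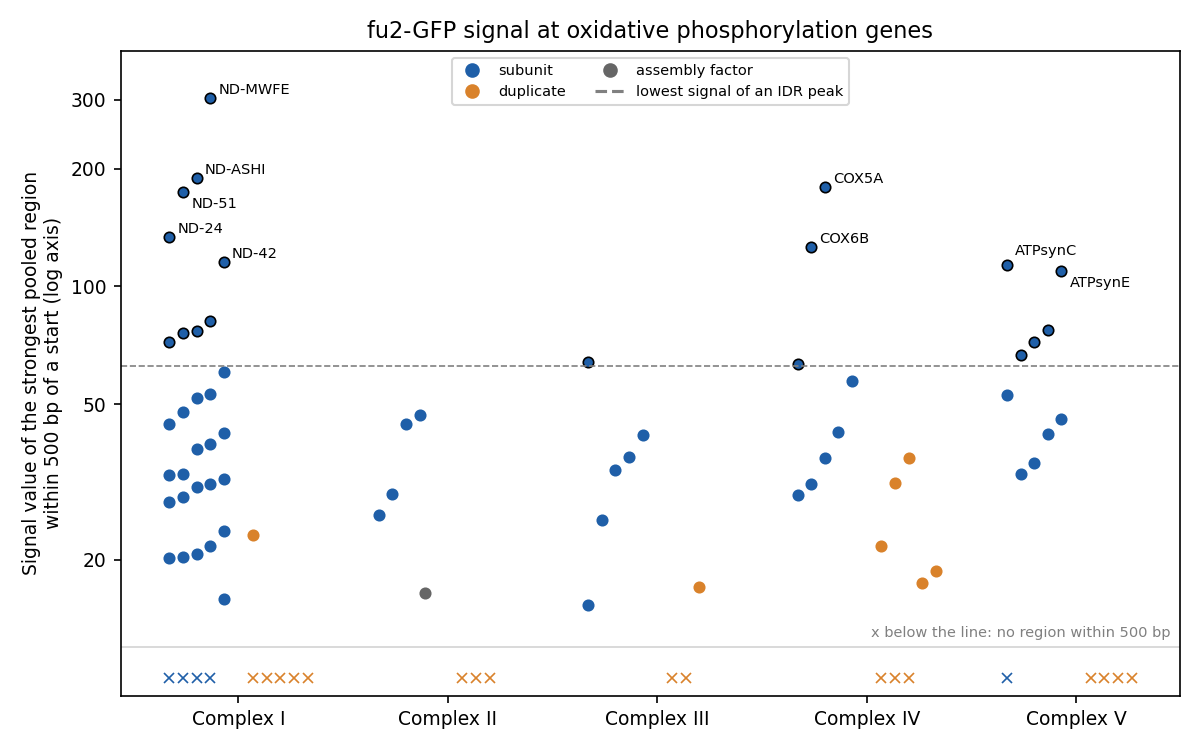
Signal value of the strongest pooled region within 500 bp of a start (vertical log axis, the authors' units) for each of the 88 genes, by respiratory complex; the sideways spread carries no meaning, black rims mark genes with an IDR peak and crosses mark genes with no pooled region. The 18 genes above the dashed line at 62.52 are all subunits, and the highest duplicate, COX7AL, sits at 36.47.

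Complex I, the NADH dehydrogenase where electrons enter from NADH, held 9 of the 18 genes. They were 9 of its 34 subunits (26.5%), beside 17.5% of all protein coding genes. A pooled region stood at 30 of the 34 (88.2%), beside 55.7%. The strongest was ND-MWFE, an accessory subunit of the membrane arm, with a pooled signal of 303.3 (rank 149 of 30000) and ranks of 113 in replicate 2 and 183 in replicate 3. ND-ASHI, another accessory subunit of the membrane arm, had a signal of 189.3 and ranks of 346 and 514 in replicates 2 and 3. Both genes were thus near the top of each list, with the replicates close together in rank.

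The subunits that take the electrons from NADH were also among the strongest. ND-51, which carries the flavin that accepts electrons from NADH, had a signal of 174.7 and ranks of 309 in replicate 2 and 771 in replicate 3. ND-24, its iron-sulfur partner, had a signal of 133.4 and ranks of 1052 and 797. The large iron-sulfur subunit of the same module, ND-75, had no region in any list, and its nearest pooled summit was 779 bp away. By contrast, each of the 4 core subunits that lead electrons on to ubiquinone (ND-49, ND-30, ND-20 and ND-23) had a pooled region but none had an IDR peak, with signals from 20.21 to 39.5. This division of complex I by function was made after the values had been seen.

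The bases under 4 of the 5 strongest summits are given here because these regions carry the highest signals in the set. They are the stretches outside annotated exons within 50 bp of the summit, read 5′ to 3′ on the plus strand of the D. melanogaster Release 6 (dm6) genome: ND-51 at chr2L:6062825-6062925, ND-24 at chrX:17632190-17632253, ND-ASHI at chrX:6679331-6679431 and COX5A at chr3R:11819478-11819547. COX5A belongs to complex IV and is described below with it. None of the 4 stretches holds a word searched for, so no letters are in capitals.
ND-51: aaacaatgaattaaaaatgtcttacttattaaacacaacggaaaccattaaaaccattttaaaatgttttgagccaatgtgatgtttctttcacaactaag
ND-24: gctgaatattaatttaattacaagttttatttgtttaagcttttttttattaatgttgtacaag
ND-ASHI: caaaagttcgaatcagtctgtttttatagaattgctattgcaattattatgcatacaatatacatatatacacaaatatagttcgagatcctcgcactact
COX5A: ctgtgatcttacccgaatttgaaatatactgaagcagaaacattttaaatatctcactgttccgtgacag

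The other 5 complex I genes with an IDR peak encode accessory subunits. ND-42, which has the fold of a nucleoside kinase, had a signal of 115.4 and ranks of 1370 and 1111 in replicates 2 and 3. ND-SGDH had a signal of 81.72 and ranks of 1871 and 1997, and ND-MNLL a signal of 72.1 and ranks of 2964 and 2756. In these genes the replicates stood close together. They were further apart at ND-B17, with a signal of 76.86 and ranks of 1256 and 4575, and at ND-B22, with a signal of 75.82 and ranks of 5383 and 1819. The summit at ND-B17 was also within 500 bp of the start of a spliceosomal RNA gene, snRNA:U5:35D. Under the threshold, the strongest were ND-B14.5A (60.32), ND-B18 (53.17) and ND-B14 (51.77), also accessory subunits. ND-18, ND-75 and ND-AGGG had no region in any list, and ND-19 had one in replicate 3 alone, at rank 16580.

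Complex V had an IDR peak at 5 of 11 subunits (45.5%) and a pooled region at 10 (90.9%). The shares over all protein coding genes were 17.5% and 55.7%, and with 11 subunits that of complex V is coarse. The share of complex V also depended on the replicate. The strongest regions of replicate 2 alone reached 3 of 11 (27.3%), below complex IV at 4 of 8 (50%). Those of replicate 3 alone reached 6 of 11 (54.5%). The highest were 2 genes of the membrane sector. ATPsynC, which forms the rotating ring, had a signal of 113.4 and ranks of 1238 in replicate 2 and 1026 in replicate 3. ATPsynE, a small membrane subunit, had a signal of 109.7 and ranks of 759 and 1524. ATPsynbeta, the catalytic subunit, followed with a signal of 77.3 and ranks of 2532 and 1882. Its pooled summit lay at -483 bp from its own start but at -26 bp from that of CG11076 (minus is upstream). The peak cannot be assigned to either gene. The 2 ranks belong to different sites, with summits at -73 bp in replicate 2 and -430 bp in replicate 3.

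The remaining pair of complex V genes rested more on replicate 3. ATPsynF, a small membrane subunit, had a signal of 72.23 and ranks of 3352 in replicate 2 and 2028 in replicate 3. ATPsynD, of the stalk that holds the catalytic head still, had a signal of 66.86 and ranks of 13429 and 1830, the widest gap between replicates among the 18 genes. Of the stronger genes under the threshold, ATPsynCF6 (52.93) and ATPsynB (45.78) encode further stalk subunits and ATPsynG (41.87) a membrane subunit. ATPsyndelta, of the central stalk, had no region in any list and its nearest pooled summit was 907 bp away.

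Complex IV, the cytochrome c oxidase, had an IDR peak at 3 of 8 subunits (37.5%), and all 8 had a pooled region. The shares over all protein coding genes were 17.5% and 55.7%, and a share of 8 subunits is coarse. COX5A had a signal of 179.1 and ranks of 657 in replicate 2 and 452 in replicate 3. COX6B, a subunit on the side of the intermembrane space, had a signal of 126.2 and ranks of 1079 and 887. Both were well inside the threshold in each replicate, whereas COX8, a small membrane subunit, was close to it, with a signal of 63.41 and ranks of 1910 and 3760. The next were COX7C (57.25), COX7B (42.57) and the duplicate COX7AL (36.47).

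Complexes II and III have few subunits in the set, and 0 and 1 of these had an IDR peak. Complex II, succinate dehydrogenase, which is shared with the tricarboxylic acid cycle and has no subunit encoded in mitochondria, had an IDR peak at 0 of 4 subunits, although all 4 had a pooled region. The signals were 46.8 at SdhB (the iron-sulfur subunit), 44.5 at SdhD and 29.51 at SdhC (the membrane anchors), and 26.12 at SdhA (the flavoprotein). An IDR peak with a signal of 67.54 did lie at -843 bp from the start of SdhA (minus is upstream), outside the distance used. Complex III, the cytochrome bc1 complex, had an IDR peak at 1 of 6 subunits, UQCR-14, with a signal of 64.18 and ranks of 2355 and 3643. Below it were UQCR-Q (41.77), UQCR-11 (36.68) and UQCR-6.4 (34.03). With 4 and 6 subunits these shares are coarse. That of complex III (16.7%) was near the 17.5% of all protein coding genes. With so few genes, 0 of 4 is not read as a trait of complex II.

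The threshold fell within a continuous run of values. The members just inside were COX8 at 63.41 and UQCR-14 at 64.18, and those just outside were ND-B14.5A at 60.32 (rank 3190) and COX7C at 57.25 (rank 3422). As weaker pooled regions were added, the share of subunits reached rose from 28.6% at 3033 regions to 44.4% at 5000 and 77.8% at 10000. Over all protein coding genes the corresponding shares were 17.5%, 25.1% and 37.4%. The subunits were therefore mostly within the first 10000 regions of the list, and 6 of the 63 (9.52%) fell within its first 1000 regions, beside 6.73% of all genes.

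**Figure D2:**
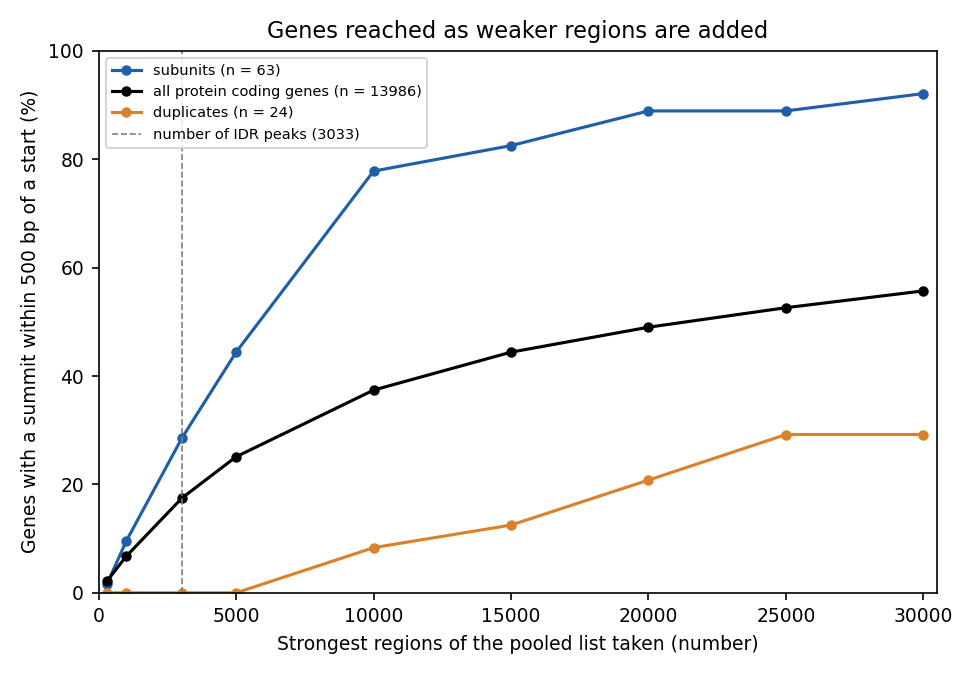
Percentage of genes with a summit within 500 bp of a start (vertical axis) as more regions of the pooled list are taken in order of signal (horizontal axis), for 63 subunits, 24 duplicates and all 13986 protein coding genes. At 10000 regions the subunits stand at 77.8%, all genes at 37.4% and the duplicates at 8.33%.

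The replicates ranked members less alike than genes in general. Among the 57 members with a region in both replicates, Spearman's rho of the ranks was 0.622, against 0.789 over 6111 protein coding genes, and Pearson's r of log2 signal was 0.763 against 0.849. These are descriptions across genes of the same 2 libraries. They compare the strongest region near each gene in each list, which need not be the same site in both. In all, 12 of the 88 members (13.6%), beside 13.9% of all genes, had a region among the 3033 strongest of both replicates, and all 12 had an IDR peak. They made up 66.7% of the members with an IDR peak, whereas the corresponding share over all genes was 79.1%.

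The strongest regions of a single replicate reached 11 further members. Those of replicate 2 alone reached ND-B17, UQCR-14 and COX8, which had IDR peaks, and SdhC and COX5B, which had none. SdhC ranked 2884 in replicate 2 and 9124 in replicate 3, and COX5B ranked 2484 and 7175. In both genes the 2 ranks belong to different sites. The SdhC summits lay at -322 bp in replicate 2 and 262 bp in replicate 3 (minus is upstream). Those of COX5B lay at -122 and 402 bp. Those of replicate 3 alone reached ND-B22, ATPsynD and ATPsynF, which had IDR peaks, and ND-B14, COX7C and ATPsynCF6, which had none. For the last 3 genes the ranks were 5916 and 3010 at ND-B14, 3770 and 2981 at COX7C, and 7036 and 2842 at ATPsynCF6. The ATPsynCF6 summits were also at different sites, at 466 bp in replicate 2 and -96 bp in replicate 3. Members reached in replicate 2 alone were 5.68% of the 88, beside 3.45% of all protein coding genes. For replicate 3 alone the shares were 6.82% and 3.35%. Whether these 11 genes are bound in both embryo collections cannot be told from 2 replicates.

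**Figure D3:**
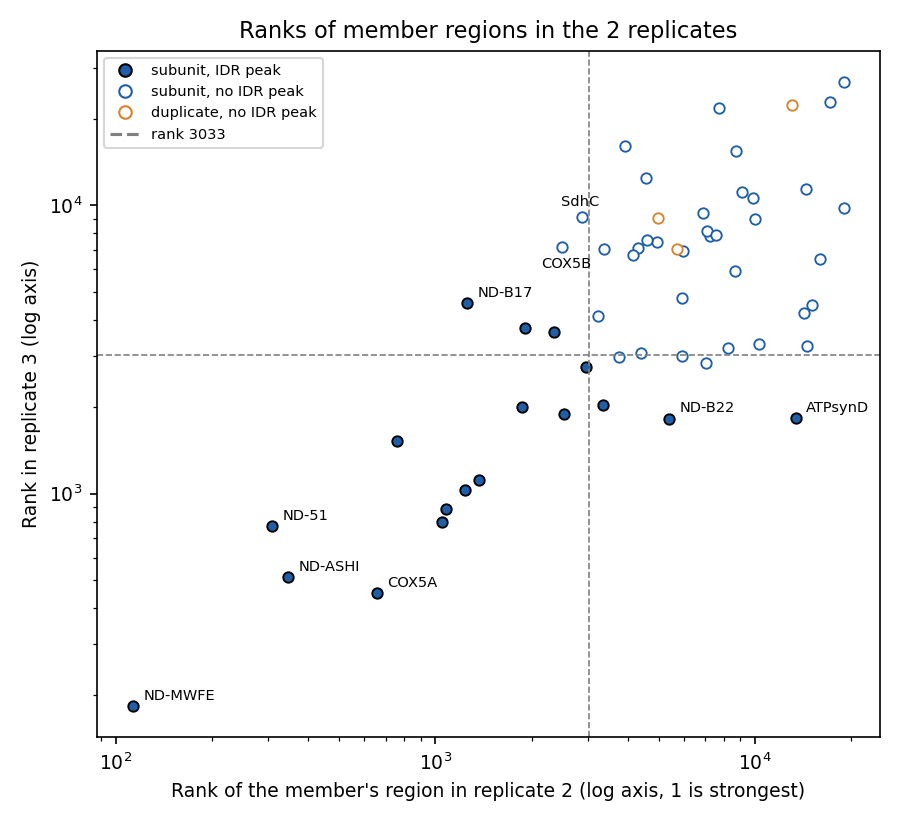
Rank of each member's strongest region in replicate 2 (horizontal log axis) against replicate 3 (vertical log axis) for the 57 members with a region in both; dashed lines mark rank 3033 and filled points have an IDR peak. ND-MWFE is the strongest member in both replicates at ranks 113 and 183, while ATPsynD stands at 13429 and 1830. The 2 ranks of a member need not belong to the same site.

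The duplicates differed from the genes they copy. In 21 of 24 pairs the parent gene had the higher pooled signal, and in 16 the parent alone had a pooled region. None of 24 duplicates had an IDR peak, and 16 of 24 (66.7%) had no region in any list, beside 34.9% of all protein coding genes. Some parents are among the stronger genes of the set, although the 3 strongest (ND-MWFE, ND-ASHI and COX5A) have no duplicate here: ND-51 had 174.7 while neither ND-51L1 nor ND-51L2 had a pooled region, and ND-24 had 133.4 while ND-24L had none. ATPsynbeta (77.3) and ATPsynbetaL (no pooled region) stood the same way. The peaks of ND-51, ND-24 and ATPsynbeta are also within 500 bp of the starts of CG13994, corolla and CG11076, in that order. They cannot be assigned to the parents alone. The pairs were taken from the gene names, except for 4 whose parents (levy, cype and sun) have names outside the set. Those 4 were assigned by hand from knowledge of the families. All pairs were made with earlier results known, and copies that share a parent are not independent.

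The 2 exceptions were COX7AL (36.47) and COX7AL2 (31.43), both copies of COX7A (31.19), by small margins, and for COX6CL neither copy nor parent (cype) had a pooled region. Placement differed as well. The 7 duplicates with a pooled region had their summits 141 to 482 bp from a start, with 0 of 7 within 100 bp and 5 in a coding exon. Of the 40 subunits with a pooled region under the IDR threshold, 19 were within 100 bp and 4 in a coding exon. Over all protein coding genes under the threshold the shares were 37.9% and 19.4%. With 7 duplicates the difference in placement is coarse. Outside complex I the copies with no region in any list were SdhAL, SdhBL, SdhCL, UQCR-11L, UQCR-6.4L, COX6AL, COX6AL2, COX6CL, ATPsynGL, ATPsynbetaL and ATPsynepsilonL. Shared sequence between copies and parents was not examined, nor its part in the mapping of reads.

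At members with an IDR peak the summit lay upstream of the start in 16 of 18 genes (88.9%), beside 87.4% of all genes with an IDR peak. With positions upstream written as negative, the median was -76 bp for members and -109 bp for all. The summit was within 100 bp of a start in 12 of 18 members (66.7%), beside 42.5% of all. The farthest upstream was ATPsynbeta, at -483 bp, and the only summits downstream were those of UQCR-14 at 12 bp and ATPsynC at 28 bp. Under the threshold only 22 of 48 members (45.8%) had the summit upstream, beside 55.7% of all such genes, and 9 of 48 (18.8%) had it in a coding exon, beside 19.4%. The median GC content of the 101 bp around the summit was 39.1% at members with an IDR peak and 45.5% at those under the threshold, and over all genes 38.6% and 45.5%.

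**Figure D4:**
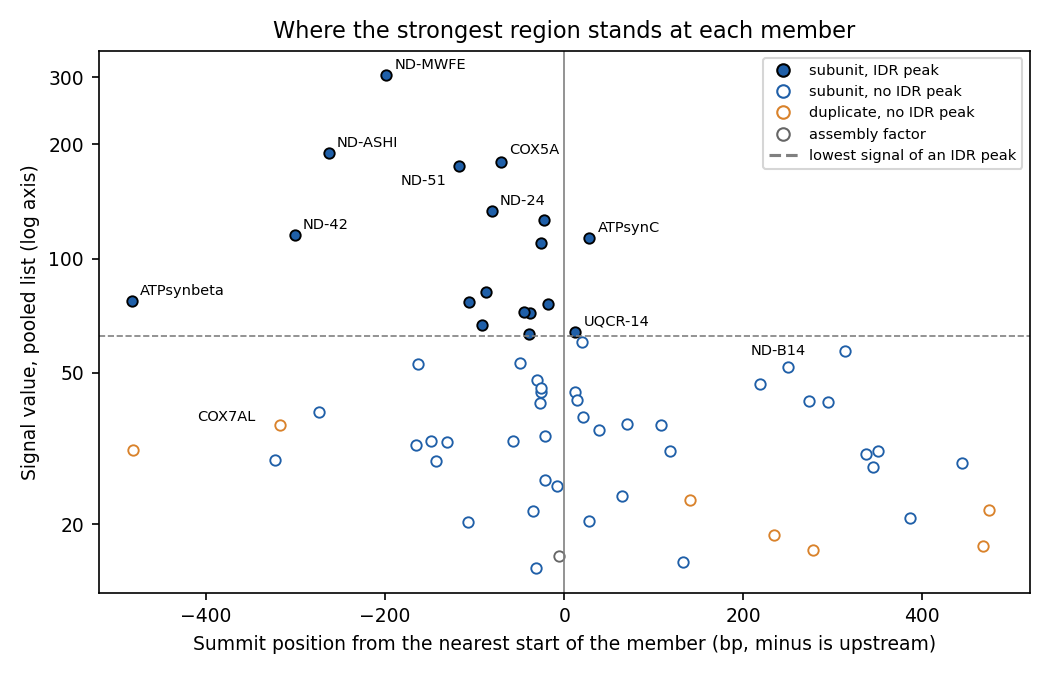
Position of the strongest pooled summit relative to the nearest start of the member (horizontal axis, bp, minus is upstream) against its signal value (vertical log axis); filled points have an IDR peak. Of 18 filled points 16 lie upstream, while the 7 duplicates lie 141 to 482 bp from a start.

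Many of these peaks stood between neighbouring genes. In 14 of the 18 members with an IDR peak (77.8%) the same summit was also within 500 bp of the start of another protein coding gene, beside 60.1% of all genes with an IDR peak. Such a peak cannot be assigned to either gene. The partners of 3 members act in mitochondria too. ND-ASHI shares its peak with Fum1, the fumarase of the tricarboxylic acid cycle, in divergent orientation with starts 522 bp apart and the summit at -263 bp from ND-ASHI and -259 bp from Fum1. ATPsynD shares its peak with mRpL55, a protein of the mitochondrial ribosome, with starts 95 bp apart. ND-42 shares its peak with Cchl, whose product attaches heme to cytochromes c, with starts 229 bp apart.

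The other partners include genes of several other cell functions. The summit at ND-MWFE was at -22 bp from TppII, which encodes a peptidase, and at -199 bp from ND-MWFE. ND-51 faces CG13994 with starts 232 bp apart, ND-24 faces corolla, a gene of the synaptonemal complex, at 274 bp, and COX5A faces glo, which encodes an RNA-binding protein, at 179 bp. COX8 faces VhaM9.7-b, a gene of the vacuolar proton pump, at 415 bp. ATPsynbeta faces CG11076 at 509 bp, with the summit at -26 bp from CG11076. The summits with no other protein coding start within reach were those of ND-B17, ND-B22, UQCR-14 and ATPsynC, and their signals ran from 64.18 to 113.4.

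Short sequence words were counted on both strands in the 101 bp around the summit, for 66 members with a pooled region and for 6205 distinct pooled summits at all protein coding genes. The 4 words TTACATAA, TTACGTAA, TTATATAA and TTATGTAA, known as a nuclear respiratory gene element, were together present at 3 of 66 members (4.55%), beside 0.999% of all promoter summits, and at 2 of 18 members with an IDR peak, ND-MNLL and ND-SGDH. The DNA replication-related element (DRE), TATCGATA, was present at 4 of 66 (6.06%), beside 4.11%, and GAGAG at 7 of 66 (10.6%), beside 11.9%. CAACACTG was at 3 of 66 (4.55%) and at 0 of 18 with an IDR peak, beside 2.53% and 5.9% over all summits. In a wider window of 201 bp it was at 3 of 18 members with an IDR peak (16.7%), beside 8.14%, so that comparison turns with the window. CAGCACTG was at 3 of 66, beside 1.82%, and the E-box CACGTG at 0 of 66, beside 1.4%. These counts are small, and a match is a description of the letters alone.

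A further word, AACTATCG, was added after the sequences had been read, so its counts support nothing. It was present at 6 of 66 members (9.09%), beside 2% of all promoter summits, and at COX6B, COX8 and ATPsynE among the 18 with an IDR peak. It shares the letters TATCG with the DRE. The stretches below are read as above and show the words in capitals. The respiratory gene element is at ND-MNLL (chrX:7893799-7893886) and ND-SGDH (chr3L:12138621-12138721). AACTATCG is at COX6B (chrX:19744336-19744408, where GAGAG overlaps it) and COX8 (chr3L:21539448-21539536). The DRE is at ND-23 (chr3R:15837341-15837418) and SdhC (chr3R:11210122-11210222), both under the IDR threshold. Each of these summits is also within 500 bp of another protein coding start, such as spn-E at ND-23 and Tctp at SdhC. The words cannot be assigned to either gene.
ND-MNLL: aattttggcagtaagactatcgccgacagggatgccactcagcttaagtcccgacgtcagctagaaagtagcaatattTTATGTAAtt
ND-SGDH: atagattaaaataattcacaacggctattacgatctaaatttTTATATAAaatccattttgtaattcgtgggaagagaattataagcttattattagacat
COX6B: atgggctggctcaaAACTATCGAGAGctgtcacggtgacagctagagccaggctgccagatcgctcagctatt
COX8: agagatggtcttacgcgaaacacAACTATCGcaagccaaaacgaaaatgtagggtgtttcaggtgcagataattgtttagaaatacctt
ND-23: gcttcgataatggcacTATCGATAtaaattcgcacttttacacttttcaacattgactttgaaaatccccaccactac
SdhC: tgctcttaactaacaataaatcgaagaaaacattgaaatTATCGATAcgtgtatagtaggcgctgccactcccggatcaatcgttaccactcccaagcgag

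Related mitochondrial genes that the name rule does not take were counted in 6 lists, of which only the first holds respiratory subunits. Of their 46 genes 15 had an IDR peak (32.6%), beside 17.5% of all protein coding genes, and 37 a pooled region (80.4%), beside 55.7%. In 10 of the 15 the summit was also within 500 bp of the start of another protein coding gene, so those peaks cannot be assigned to either. Respiratory subunits with other names gave 2 of 9: blw, the catalytic partner of ATPsynbeta as the alpha subunit of complex V, with a signal of 261.8, and levy, a complex IV subunit, with 91.32. The blw region ranked 141 in replicate 2 and 287 in replicate 3, above every member except ND-MWFE in each. Of the cytochrome c pair, Cyt-c-d had a peak (175.1), 407 bp downstream of its start and also near CG31808, and Cyt-c-p a weaker region (39.55).

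The tricarboxylic acid cycle had the highest share of genes with an IDR peak among these lists, at 7 of 12 (58.3%). Its list leaves out succinate dehydrogenase, where 0 of 4 subunits had an IDR peak. They were mAcon1 (aconitase, 216.7), Fum1 (189.3), the 3 isocitrate dehydrogenase subunits Idh3b (83.87), Idh3g (82.1) and Idh3a (62.76), Mdh2 (malate dehydrogenase, 72.21) and Scsalpha1 (succinyl-CoA ligase, 65.01). The peak of Fum1 is that of ND-ASHI, mAcon1 shares its peak with CG43345 and CG43346, Idh3a with CoRest and Idh3g with CG4743. The summits of Mdh2 and Scsalpha1 lay 452 and 423 bp downstream of their starts, and Idh3a was close to the threshold of 62.52. Distances other than 500 bp were not tried for these lists. In the list kept for assembly factors 2 of 7 had a peak (28.6%), beside 17.5% of all protein coding genes. CIA30, a complex I assembly factor, had the highest signal in the 6 lists (409.2). The other was Taz (151.2), which remodels cardiolipin and is not itself an assembly factor of a complex. CIA30 shares its peak with CG7601 and Taz with mRpL18. Of genes that maintain or transcribe the mitochondrial genome 3 of 11 had a peak: mtSSB (126.6), which binds single-stranded DNA, PolrMT (85.8), the mitochondrial RNA polymerase, and PolG2 (79.88), an accessory subunit of the DNA polymerase. None of 5 regulators of mitochondrial gene expression had an IDR peak, though all 5 had a pooled region. The 73 genes of mitochondrial ribosomal proteins had an IDR peak in 25 (34.2%) and a pooled region in 66 (90.4%). Over all protein coding genes the shares were 17.5% and 55.7%. Every region of the lists lay on chromosome arms 2L, 2R, 3L, 3R, 4 or X. Whether the lists were limited to these arms is not known. They therefore say nothing of the mitochondrial genome, which holds 13 protein coding genes in the annotation.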

How the data were processed

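ChIP-seq regions of fu2-GFP embryos were read from 4 dm6 lists, for 2 replicates, their pool and the IDR peaks. Per the labels, the authors made each list, and its deposited signal value is theirs and is not comparable between lists. The deposited −log10 q-value reaches the list maximum at all 3033 IDR peaks, so regions were ranked by signal. The deposited summit offset gives each summit. The aligner, peak caller and IDR threshold are not given in the sources used here. Lists on the older build (dm3) were not used.

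Starts were all transcripts of protein coding genes in Ensembl release 115 (BDGP6.54), on nuclear chromosomes. The nearest-region search, written in Python 3.11.15 with numpy 2.4.6 and scipy 1.17.1, was tested on simulated data, where it found 1000 of 1000 planted regions. GC content and words came from the NCBI Release 6 genome.

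Named genes were every member with an IDR peak, up to 3 per complex with the highest signal under the threshold, members among the strongest regions of 1 replicate alone, members with no region by name where a complex had 5 or fewer of them, and pathway genes with an IDR peak; the complex I subunits with no region were named after their values were seen. Of 59 pathway names, 13 were not found in the annotation. Members, lists and rules were chosen with earlier results of these data known. Alternatives were distances of 200 and 1000 bp, overlap of the start by at least 1 bp, protein coding transcripts alone, leaving out duplicates, the stronger IDR peaks, each replicate alone, and 100 bp either side of the summit for words. The labels call the replicates biological, and nothing ties them to separate crosses.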

Additional observations from a re-analysis of the deposited data

How the results depend on the processing

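Of 64 recomputed values, 55 stayed within 1.5 times those reported, 9 moved further and 0 reversed. All are counts or shares, so none could reverse in sign. Some of the 55 could not move. Leaving out duplicates could not change the 18 members with an IDR peak or the 12 strongest in both replicates, all of them subunits. Within the 55, members among the strongest regions of both replicates fell from 12 to 8 by overlap of the start. Taking the 1516 strongest IDR peaks alone left 9 members with a peak, in place of 18. With the strongest regions of a replicate in place of the IDR list, 17 to 18 members were reached, and 60 to 65 had a region in place of 66. Members with an IDR peak numbered 16 within 200 bp, where ND-42 and ND-ASHI were lost, 19 within 1000 bp, where SdhA was gained, and 16 by overlap of the start. The background was then 13%, 19.9% and 11.9%. No duplicate had an IDR peak in any of these settings, and 1 to 10 had a pooled region. Within 200 bp, or from protein coding transcripts alone, the 0 duplicates could not rise, as these settings only narrow the search. By complex, complex II rose to 1 at 1000 bp and with replicate 2 alone, complex III fell to 0 with replicate 3 alone, and complex V fell to 3 with replicate 2 alone, so the order of the complexes is not stable. Within 100 bp of the summit the DRE was at 8 of 66 members (12.1%), beside 6.99% of all promoter summits, CAACACTG at 7 (10.6%), beside 3.93%, GAGAG at 13 (19.7%), beside 22.6%, and the respiratory gene element at 6 (9.09%), beside 2.5%. The cause of these changes was not tested. No paired analysis was possible because the samples form 1 group. Depth is not recorded in the lists, so a gene with no region cannot be called unbound.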
